A study of Mus musculus with 20 samples.

Results

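The 10 genes described here encode receptors for extracellular purines in the mouse: the adenosine receptors Adora1, Adora2a and Adora2b, the ATP-gated channels P2rx3, P2rx4 and P2rx7, and the nucleotide receptors P2ry1, P2ry2, P2ry12 and P2ry14. They were taken by gene symbol from 37561 genes shared by 28 deposited RNA-Seq tables. Each table compares 2 libraries. There were 10 tables that set HPRT-knockdown cells against control cells on the same day, and 9 tables of consecutive days for each line. The cells were mouse ESD3 (D3), an established embryonic stem cell line (strain 129s2/SvPas) that was kept on feeder cells, primary fibroblasts of the mouse embryo. Both lines carried a retrovirus expressing an shRNA, against HPRT in the knockdown line and against luciferase in the control line, so the controls had also been infected. Spherical neural masses (SNM), floating clusters of neural precursor cells, were made from both lines and differentiated toward dopaminergic neurons for 14 days, with libraries made daily from day 0 to day 4 and then every second day. Each line gave 10 libraries, 1 on each day, and the RNA of replicate cultures of a time point had been pooled before sequencing. The comparison therefore rests on 1 infected line in each group and on days in place of replicate cultures, so the p-values measure the spread between days of 1 pair of lines.

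HPRT is the enzyme that salvages the purine bases hypoxanthine and guanine. Cells also release purines as signals. ATP that leaves a cell acts on P2X receptors, which are cation channels, and on P2Y receptors, which couple to G proteins. Ectoenzymes on the cell surface break ATP down to ADP, AMP and adenosine, and adenosine acts on the P1 receptors. In the brain A1 receptors inhibit and A2 receptors stimulate adenylyl cyclase, P2X7 and P2Y12 are best known from microglia, and P2Y1 and P2Y2 raise intracellular calcium through phospholipase C.

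P2rx7 and P2rx4 were neighbors on chromosome 5. In build NCBIM37, the build of the deposited tables, P2rx7 occupied chr5:123093920-123141441 and P2rx4 chr5:123157593-123179747, both on the plus strand and 16151 bases apart. Of all member pairs, their within-day ratios were the most alike, with a Pearson r of 0.85 over 10 days that share their libraries, day 6 included. The RefSeq promoter of each, from 250 bases before to 50 bases after the listed start, is printed for that reason, 5′ to 3′ on the plus strand. The coordinates are of build GRCm38.p6, at chr5:122643677-122643976 for P2rx7 (the first of its 2 listed starts) and chr5:122707294-122707593 for P2rx4. Capitals mark GGGCGG or its reverse complement CCGCCC.
P2rx7: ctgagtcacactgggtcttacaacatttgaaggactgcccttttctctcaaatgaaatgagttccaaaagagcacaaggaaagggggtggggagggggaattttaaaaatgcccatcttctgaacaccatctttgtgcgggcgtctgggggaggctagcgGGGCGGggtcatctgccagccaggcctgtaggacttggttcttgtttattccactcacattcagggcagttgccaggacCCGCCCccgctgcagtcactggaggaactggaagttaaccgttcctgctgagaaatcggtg
P2rx4: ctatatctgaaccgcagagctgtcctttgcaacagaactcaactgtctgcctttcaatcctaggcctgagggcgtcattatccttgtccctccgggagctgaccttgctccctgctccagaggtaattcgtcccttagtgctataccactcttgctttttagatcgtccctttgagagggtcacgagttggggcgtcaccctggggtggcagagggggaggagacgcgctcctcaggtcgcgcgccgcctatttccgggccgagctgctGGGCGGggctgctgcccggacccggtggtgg

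The P2rx7 window held 8 CpG dinucleotides and 53.3% G or C, and the P2rx4 window 18 CpG and 60.3%, against a median of 7 CpG over 32851 RefSeq promoters of the same length. GGGCGG, searched on both strands, matched 2 times in the P2rx7 window and 1 time in the P2rx4 window, and 35.7% of all promoters held it. TATAAA (13.6% of promoters), CACGTG (7.15%) and TGACGTCA (1.79%) had no match in either window. These are matches of letters in 2 short windows and not measured binding sites.

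As the check of the labels, Hprt was lower in the HPRT-knockdown library on 10 of 10 days. Its normalized reads lay between 543 and 924 in the control libraries and between 20.9 and 143 in the knockdown libraries, so the lines did not overlap. The mean log2 ratio was -4.00 ± 0.89 (SD, n = 9 days), which is 6.24% of the control level. Day 6, which the study left out of its pathway analysis, is left out of every mean and test below and its values are given beside them.

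In each deposited table a value is the log2 of a normalized read number minus the mean of the 2 libraries, so the difference of the 2 columns is a log2 ratio and the level itself is not given. From the 28 differences per gene the read numbers of 9 of the 10 receptors were worked back, some of them with fractions of a read. The rebuilt reads met 27 of 28 tables within 7.6e-07 on the log2 scale. The table of control days 3 and 4 departed from them by 0.06 to 0.36 on the log2 scale. Normalized reads below are these reads divided by the size factor of the library, which ran from 0.782 to 1.52 over the 20 libraries. Reads could not be rebuilt for Adora1, and for it only ratios are given. Intervals and limits on read numbers cover counting error only.

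A single member had tables with 0 in both columns. P2ry12 was at 0 in 1 of 28 tables, that of day 2, where each library held 1 read, and the other 9 receptors in none. The symbol P2rx3 also had a second entry on chromosome 2 that was 0 in all 28 tables and is not used. P2ry12 typically lay under the level of 16 normalized reads that was required for testing. P2ry14 was tested, though its median was under that level in the control line and over it in the knockdown line. The 9 tested receptors stand among 13608 tested genes.

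Of these 9 receptors, 7 were higher in HPRT-knockdown cells (Adora1, Adora2a, P2rx4, P2rx7, P2ry1, P2ry2 and P2ry14), 1 was lower (P2rx3) and Adora2b did not pass the test (limma on the within-day log2 ratio, 9 days, Benjamini-Hochberg adjusted p under 0.05 over all tested genes). The median of the 9 mean log2 ratios was 1.28, against 0.0056 over all tested genes. The background was high: 52.5% of the tested genes passed the same test in either direction, 26.2% as higher and 26.3% as lower. A permutation test that flipped the signs of the 9 daily ratios in every exact way called the same number of receptors, 8, and 49.0% of all tested genes. For 7 of the 9 receptors the ratio had 1 sign on all 9 days, which 29.2% of the tested genes also had. For none of the 8 tested receptors with rebuilt reads were the normalized reads of the knockdown libraries entirely apart from those of the control libraries. In libraries of whole cultures a change in RNA per cell and a change in the share of cells that express a receptor cannot be told apart.

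**Figure D1:**
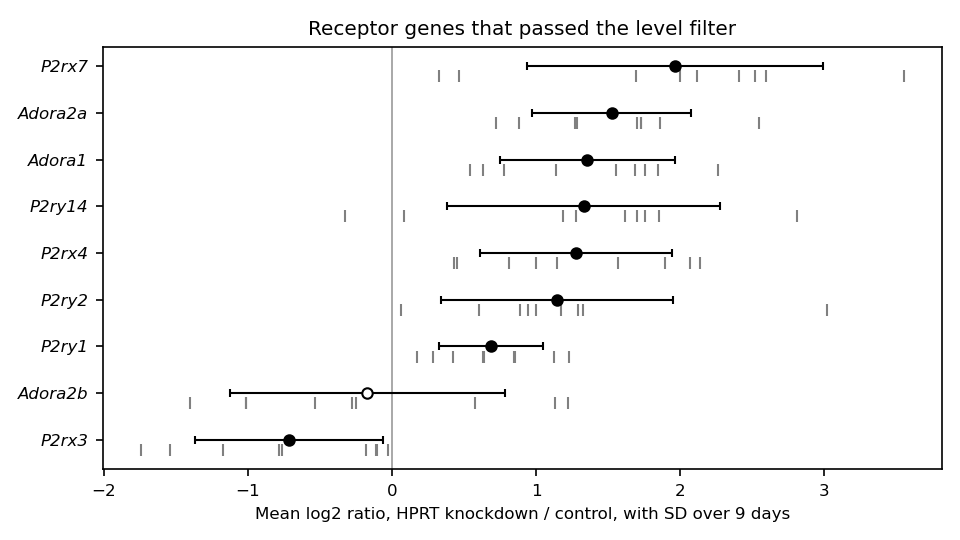
Mean log2 ratio of HPRT-knockdown over control (horizontal axis) for the 9 tested receptors, with the SD over 9 days as bars and each day as a tick. Filled points passed the limma test, from 1.96 for P2rx7 to 0.69 for P2ry1 above 0 and -0.72 for P2rx3 below it, and the open point, Adora2b, did not.

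Of the adenosine receptors, Adora1 and Adora2a were higher in the knockdown line and Adora2b changed sides during differentiation. Adora1 encodes the A1 receptor, which couples to Gi, and lies at chr1:136095800-136132008 on the minus strand (NCBIM37). Its log2 ratio was 2.26, 1.55, 1.76, 1.84 and 1.69 on days 0 to 4, then 0.54, 1.13, 0.63 and 0.77 on days 8, 10, 12 and 14. It was above 0 on 9 of 9 days and nearer to 0 in the later days. The mean was 1.35 ± 0.61 (SD, n = 9, limma SE 0.187), a 2.55-fold difference with an adjusted p of 0.000363 by limma and 0.0134 by the exact test. Adora1 shares 661 exonic bases with Mybph on the opposite strand, and the library kit did not mark strand, so reads of that stretch cannot be assigned to either gene. Mybph, a myosin-binding protein gene, had a mean log2 ratio of -5.54 ± 4.39 (SD, n = 9, limma adjusted p = 0.00581), the opposite direction to Adora1.

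Adora2a, which encodes the Gs-coupled adenosine receptor of striatal neurons (chr10:74779688-74797533, plus strand), had the smallest limma p of the receptors. Control libraries held 13.1 to 96.6 normalized reads (median 38.7, n = 9) and knockdown libraries 43.5 to 213 (median 90.6). The ranges overlapped, since the highest control libraries came from the later days, but within each of the 9 days the knockdown library was higher. The ratio was highest on day 1, at 2.54, and lowest on day 8, at 0.72, with a mean of 1.52 ± 0.55 (SD, n = 9). That is a 2.87-fold difference (limma SE 0.172, adjusted p = 0.000135). The median counting error of a day's ratio was 0.26 on the log2 scale, below the SD between days.

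Adora2b encodes a receptor that also couples to Gs and binds adenosine with lower affinity, and lies at chr11:62062486-62079955 on the plus strand. Normalized reads ran from 11.1 to 68.3 in the control line (median 48.4) and from 24.3 to 41.2 in the knockdown line (median 34.0). The control line thus varied widely around a narrow knockdown range. Its log2 ratio was 1.22 and 0.57 on days 0 and 1 and 1.13 on day 4, and below 0 on the other 6 days, down to -1.40 on day 14. The control libraries of days 0 and 4 held only 14 and 11 reads. The median counting error of a day's ratio was 0.34, and the ratios of days 2 and 8, at -0.28 and -0.25, were smaller than that. The mean of -0.17 ± 0.95 (SD, n = 9) did not pass either test (limma adjusted p = 0.635, exact permutation adjusted p = 0.654).

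The P2X channel genes split, with P2rx7 and P2rx4 higher and P2rx3 lower. P2rx7 encodes a channel that opens at high ATP and can start inflammasome signaling. Control libraries held 119, 213, 131, 126 and 146 normalized reads of it on days 0 to 4, then 159, 229, 239 and 126 on days 8, 10, 12 and 14. Knockdown libraries held 163, 698, 562, 667 and 183 on days 0 to 4, then 625, 1306, 1455 and 1469. Days 0 and 4 were close between the lines and the last 3 sampled days were far apart. The log2 ratio ranged from 0.33 on day 4 to 3.55 on day 14 with 0.47 at the start, and its mean of 1.96 ± 1.03 (SD, n = 9, limma SE 0.310) was a 3.90-fold difference (limma adjusted p = 0.000703). Counting error was 0.12 in the median on the log2 scale. At the low point on day 4 the knockdown library held 143 reads (95% Poisson interval 120.5 to 168) after 580 on day 3.

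P2rx4 encodes a channel with slow desensitization that is widely expressed in the brain. Normalized reads in the control libraries lay between 95.9 and 158 (median 124, n = 9). In the knockdown libraries they were 172, 279, 216, 231 and 129 on days 0 to 4 and 336, 543, 534 and 660 on days 8, 10, 12 and 14. The control line moved little while the knockdown line dipped on day 4 and was at its highest on day 14. The mean log2 ratio of 1.28 ± 0.67 (SD, n = 9, limma SE 0.204), a 2.42-fold difference, was above 0 on 9 of 9 days (limma adjusted p = 0.000741).

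P2rx3, which encodes a fast-desensitizing channel of sensory neurons, lies at chr2:84838740-84877619 on the minus strand. Control libraries held 31.4 to 94.6 normalized reads (median 60.6) and knockdown libraries 18.2 to 65.2 (median 32.2). The knockdown library was the lower one on 9 of 9 days, by as little as 0.03 on day 4 and as much as 1.74 on day 12 on the log2 scale. The mean was -0.72 ± 0.66 (SD, n = 9, limma SE 0.201), or 60.9% of the control level (limma adjusted p = 0.0136, exact permutation adjusted p = 0.0134). On 4 of those days, days 2, 3, 4 and 14, the ratio was between -0.18 and -0.03, smaller than the median counting error of 0.33.

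**Figure D2:**
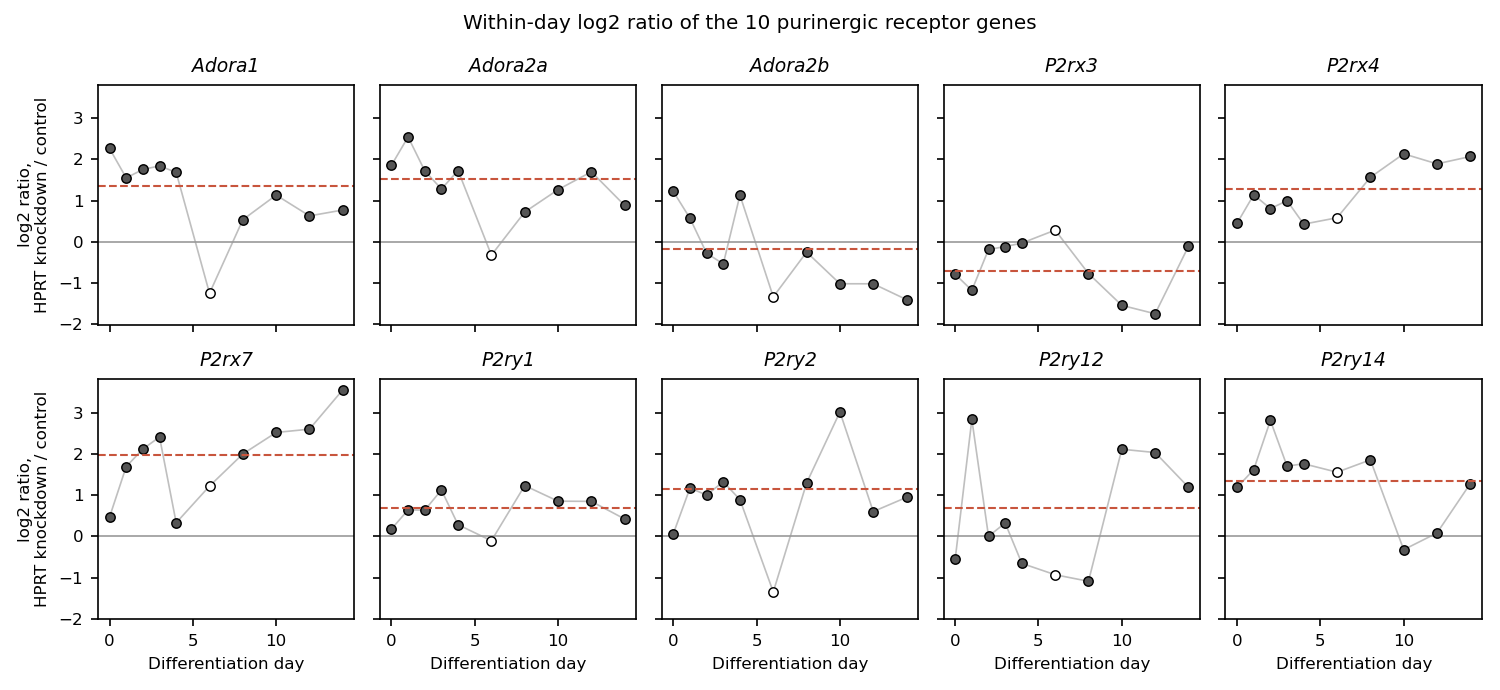
Log2 ratio of HPRT-knockdown over control (vertical axis) against differentiation day for the 10 receptors. Filled points are the 9 days of the tests, open points are day 6, and the dashed line is the mean of the 9 days. Adora1 and Adora2a fell below 0 on day 6 alone, P2rx4 and P2rx7 were highest after day 8, and P2ry12 scattered on both sides of 0.

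Of the P2Y receptors, P2ry1, P2ry2 and P2ry14 were higher in the knockdown line and P2ry12 was close to the limit of detection. P2ry1, the Gq-coupled ADP receptor of platelets, neurons and astrocytes (chr3:60806717-60812901, plus strand), held 65.5 to 154 normalized reads in the control libraries (median 102) and 99.4 to 243 in the knockdown libraries (median 164). The ranges overlapped, yet the knockdown library was higher within 9 of 9 days. The difference was the smallest of the receptors that rose and also the most even, at 0.69 ± 0.36 (SD, n = 9, limma SE 0.118) on the log2 scale, a 1.61-fold difference (limma adjusted p = 0.00104). On day 0 its ratio of 0.18 was near the median counting error of 0.19.

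P2ry2, a Gq-coupled receptor for ATP and UTP (chr7:108145086-108160505, minus strand), held 14.1 to 59.6 normalized reads in the control libraries (median 33.5) and 35.5 to 114 in the knockdown libraries (median 64.9). The log2 ratio was 0.06 on day 0 and between 0.60 and 1.32 on 7 other days. Day 10 stood apart at 3.01, where the control library was at its lowest, with 16 reads, and the knockdown library held 105. The mean of 1.14 ± 0.80 (SD, n = 9, limma SE 0.244), a 2.21-fold difference, passed the test (limma adjusted p = 0.00342).

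P2ry14, the Gi-coupled receptor for UDP-glucose (chr3:58918548-58934546, minus strand), rested on few reads in the first days. Its median over 9 days was 6.06 normalized reads in the control line and 20.5 in the knockdown line. By these medians only the line where it was higher reached the level of 16 required for testing. Control libraries held 3, 5, 2, 7 and 6 reads on days 0 to 4 and knockdown libraries 10, 14, 14, 13 and 16. From day 8 to 14 the control libraries held 37 to 68 reads and the knockdown libraries 44 to 164. The knockdown library was the higher one on 8 of 9 days, with log2 ratios of 1.18 to 2.81 on days 0 to 4 but -0.33 on day 10 and 0.08 on day 12. The mean of 1.33 ± 0.95 (SD, n = 9, limma SE 0.287) passed (limma adjusted p = 0.00362, exact permutation adjusted p = 0.0282), with a counting error of 0.68 per day in the median. Without the pairing of libraries by day the call was lost (limma adjusted p = 0.138), and the exact test lost it when any one of days 1, 2, 3, 4, 8 or 14 was left out (adjusted p of 0.0507 to 0.0547).

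P2ry12, the Gi-coupled ADP receptor of platelets and microglia (chr3:59020193-59066753, minus strand), had 0 to 7 reads in every library but 1. The exception was the knockdown library of day 1, with 39 reads (95% Poisson interval 27.7 to 53.3). The control library of day 14 and the knockdown library of day 8 had 0 reads, and a count of 0 allows up to 3 reads by a one-sided 95% limit. Over the 9 days the knockdown libraries held 69 reads and the control libraries 33, and 39 of the 69 came from day 1. Its log2 ratio averaged 0.69 ± 1.41 (SD, n = 9), above 0 on 5 days, below 0 on 3 and at 0 on 1, with a median counting error of 1.16, and it did not pass when genes under the level filter were also tested (limma adjusted p = 0.253). P2ry14 and P2ry12 both lie inside the span of Med12l, a Mediator subunit gene on the opposite strand, with 0 exonic bases shared. Med12l had a mean log2 ratio of 0.82 ± 0.44 (SD, n = 9, limma adjusted p = 0.00101).

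**Figure D3:**
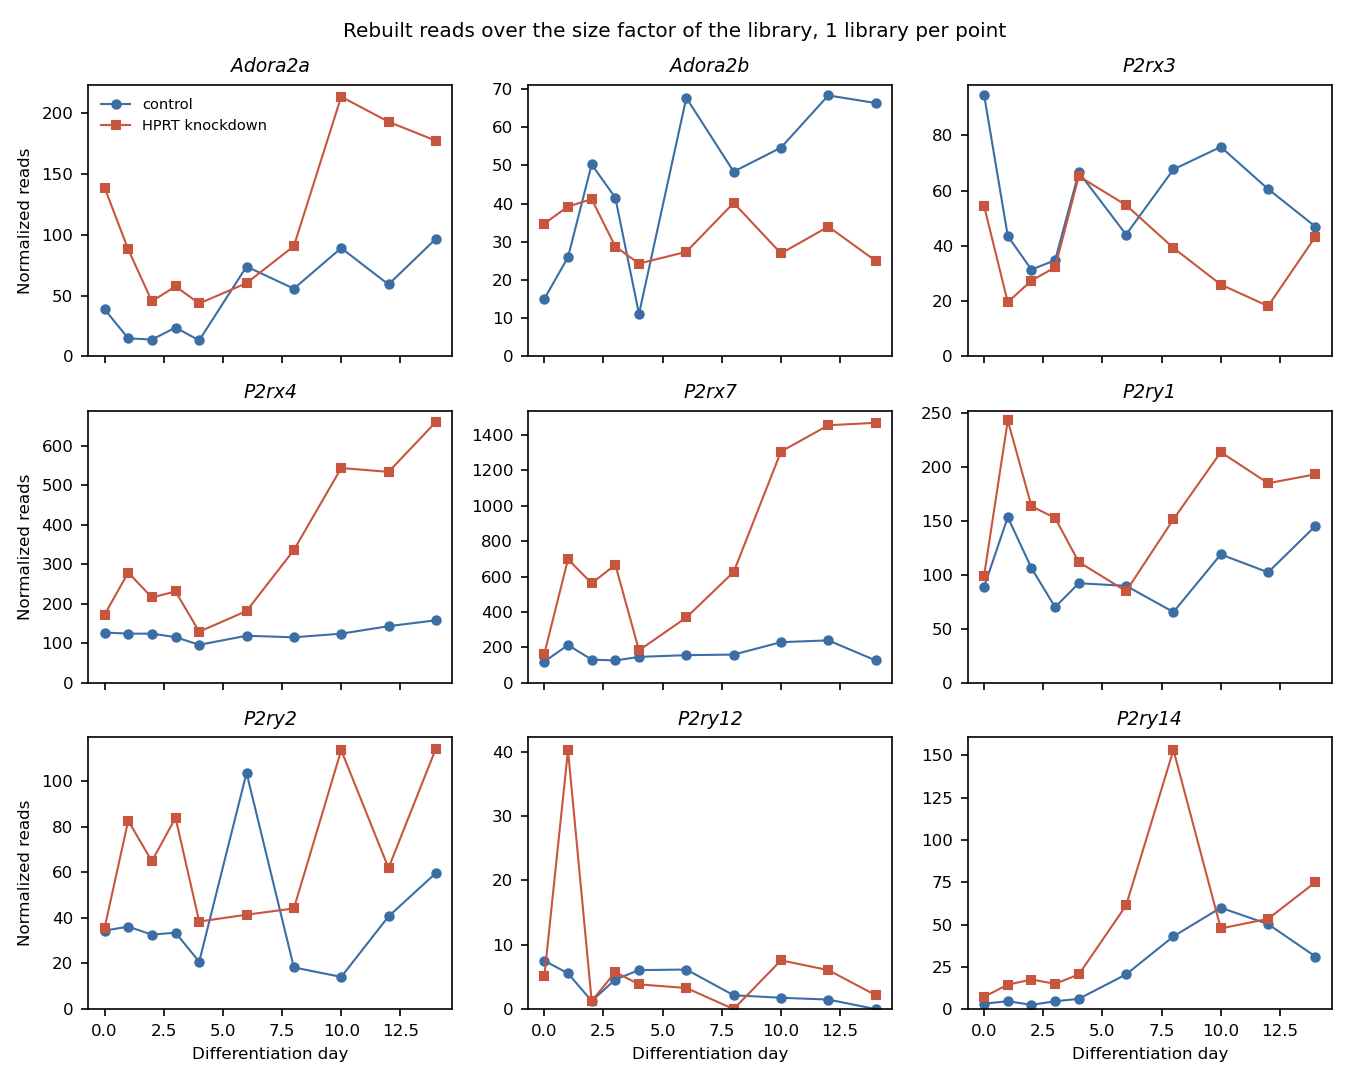
Normalized reads (vertical axis, a separate linear scale for each gene) against differentiation day for the 9 receptors whose reads were rebuilt, 1 library per point, with control as circles and HPRT-knockdown as squares. P2rx7 and P2rx4 stayed at or under 239 and 158 in every control library and reached 1469 and 660 in the knockdown library of day 14, and P2ry12 was at or under 7.58 in every library but that of day 1 of the knockdown line, at 40.3.

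Levels can be compared between receptors only per length of transcript. Adora1 has no place in the order below because its reads were not rebuilt. By the typical level over all tables, read from the rounding step, Adora1 alone passed the stricter filter of 256 normalized reads. Its exons cover 5.79 kilobases, so the first place is not settled. In the knockdown line alone the medians of P2rx7 and P2rx4, at 667 and 279 normalized reads, were also above 256. Per kilobase of annotated exons, the median normalized reads in the control line were 37.5 for P2rx4, 26.4 for P2rx7, 26.3 for P2ry1, 26.2 for Adora2b, 21.7 for P2rx3, 15.3 for Adora2a, 11.2 for P2ry2, 3.37 for P2ry14 and 0.90 for P2ry12. In the knockdown line the order per kilobase began with P2rx7 at 121 and P2rx4 at 84.2, followed by P2ry1 at 42.1 and Adora2a at 35.8. P2ry2 at 21.6, Adora2b at 18.4, P2rx3 at 11.6, P2ry14 at 11.4 and P2ry12 at 2.13 came after them. In both lines the range over days of each receptor overlapped that of the next in the order.

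Whether the gap between the lines changed with day was tested as the slope of the within-day log2 ratio. It passed for 3 of the 9 tested receptors, and 14.0% of all tested genes passed. The gap widened for P2rx4, by 0.115 per day on the log2 scale (limma SE 0.0222, adjusted p = 0.0157). It moved down for Adora1, by -0.103 per day (SE 0.0214, adjusted p = 0.0186), and for Adora2b, by -0.15 per day (SE 0.0375, adjusted p = 0.0325). P2rx7 had the steeper estimate of 0.145 per day but did not pass (SE 0.0469, adjusted p = 0.0696), and neither did Adora2a at -0.068 (adjusted p = 0.144) or P2ry14 at -0.104 (adjusted p = 0.194). The Adora1 slope did not pass without day 12 (adjusted p = 0.0624) or with day 6 included (0.281). The Adora2b slope did not pass without day 0, 1, 10, 12 or 14 (0.0637 to 0.104) or with day 6 included (0.061). The P2rx4 slope passed in every one of these fits.

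The consecutive-day tables followed each line on its own. In the control line 3 of 9 receptors rose with day, P2ry14 by 0.32 per day (adjusted p = 0.00189), Adora2a by 0.21 (adjusted p = 0.00548) and Adora2b by 0.13 (adjusted p = 0.0362), by limma on the joined log2 values of 9 libraries. The Adora2b slope was lost without any one of days 0, 1, 8, 10, 12 or 14 (adjusted p of 0.0555 to 0.0964). These joined values pass through the table of days 3 and 4, which departed from the rebuilt reads of Adora2a by 0.342 on the log2 scale. With days 3 and 4 joined through the knockdown line, a choice made after seeing the data, the slopes were 0.33 for P2ry14, 0.18 for Adora2a and 0.13 for Adora2b. All of them passed (limma adjusted p = 0.00192, 0.0112 and 0.0461). Of all tested genes 43.6% passed in the control line, 19.7% as rising. In the knockdown line 2 of 9 receptors rose, P2ry14 by 0.22 per day (adjusted p = 0.0279) and P2rx4 by 0.13 (adjusted p = 0.0223), where 13.1% of all tested genes passed and 7.6% as rising. P2rx7 rose by 0.17 per day in the knockdown line but missed the threshold (adjusted p = 0.0618). Without day 12 or without day 14 neither knockdown call held (adjusted p of 0.0688 and 0.107 for P2rx4), and P2ry14 was also lost without day 2 or day 10.

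From day 0 to day 14, over the joined tables, P2rx7 ended 3.14 higher on the log2 scale in the knockdown line. In the control line it held 119 normalized reads on day 0 and 126 on day 14, and the joined difference of -0.05 passes through the table of days 3 and 4 that departed from the rebuilt reads, so no direction is given. P2rx4 ended 1.91 higher in the knockdown line and 0.19 higher in the control line, where it held 127 normalized reads on day 0 and 158 on day 14. P2ry14 ended 3.34 higher in the knockdown line and 3.11 higher in the control line. These rises start from 10 and 3 reads on day 0 (95% Poisson intervals 4.8 to 18.4 and 0.62 to 8.77), too few to compare their size. Adora2b ended 2.23 higher in the control line but 0.51 lower in the knockdown line. Its control value starts from 14 reads on day 0 (95% Poisson interval 7.65 to 23.5) and its knockdown value ends at 23 reads on day 14 (14.6 to 34.5). The control differences of P2rx4, P2ry14 and Adora2b also pass through the table of days 3 and 4. It departed from their rebuilt reads by 0.114, 0.156 and 0.0957 on the log2 scale. The largest single steps of P2rx7 were a rise of 2.11 from day 0 to 1 and a fall of 1.87 from day 3 to 4, both in the knockdown line. For P2ry12 the knockdown line rose by 3.00 from day 0 to 1 and fell by 5.02 from day 1 to 2, steps that rest on 7, 39 and 1 reads.

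Day 6 differed from its neighbors for several receptors. The day-6 log2 ratio was -1.25 for Adora1, -0.32 for Adora2a, -0.11 for P2ry1 and -1.35 for P2ry2, against means above 0 on the other days, and 0.29 for P2rx3 against a mean below 0. P2rx4 (0.58), P2rx7 (1.22) and P2ry14 (1.55) kept their sign on that day, and Adora2b was at -1.33. From day 4 to 6 the control line rose by 2.49 for Adora2a, 2.61 for Adora2b and 2.32 for P2ry2 on the log2 scale, and P2ry2 then fell by 2.48 to day 8. With day 6 included the 8 limma calls held, and the exact test no longer passed for P2rx3 (adjusted p = 0.0506) or P2ry2 (0.0632).

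Other receptors of the family were mostly under the level for testing. Of 12 further adenosine, P2 and related receptor genes, 2 reached the level for testing and both were higher, P2rx6 and Gpr17. P2rx6 encodes a channel subunit that works mainly together with other P2X subunits, and its log2 ratio was 2.60 ± 1.32 (SD, n = 9), above 0 on 9 of 9 days (limma adjusted p = 0.000591). Gpr17, a receptor of oligodendrocyte precursors related to the P2Y family, had 2.77 ± 3.24 and was above 0 on only 5 of 9 days (limma adjusted p = 0.0344). P2ry13 was at 0 in every table, and the other 9 lay under the filter.

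Ectoenzymes break down nucleotides outside the cell. Of 10 ectoenzyme genes 7 were tested, of which 5 rose and 1 fell, with a median log2 ratio of 1.02, where 26.2% of all tested genes rose and 26.3% fell. Nt5e, the ecto-5′-nucleotidase (CD73) that forms adenosine from AMP, was higher by 1.28 ± 0.58 (SD, n = 9, limma adjusted p = 0.000405). Enpp2, which encodes autotaxin, was higher by 1.36 ± 1.46 (adjusted p = 0.0246), on 7 of 9 days, and Enpp3 was lower, at -1.79 ± 1.38 (adjusted p = 0.00529). Enpp2 is better known for making lysophosphatidic acid than for nucleotide breakdown.

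Of 14 genes of adenosine uptake and turnover 10 were tested, of which 0 rose, 5 fell and 5 did not pass, with a median of -0.42. The 50.0% called was close to the 52.5% of all tested genes that passed in either direction. Of all tested genes 26.3% were lower. Slc28a1, a concentrating nucleoside transporter, was lower at -3.18 ± 1.74 (SD, n = 9, limma adjusted p = 0.000864). Ahcy, which splits S-adenosylhomocysteine into adenosine and homocysteine, was lower at -0.95 ± 0.67 (adjusted p = 0.0035). Slc29a1, the main equilibrative nucleoside transporter, was lower at -0.64 ± 0.48 (adjusted p = 0.00546).

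Of 8 genes of ATP release 7 were tested, of which 1 rose and 2 fell (median -0.05). That is 42.9% called, under the 52.5% of all tested genes. Slc17a9, the vesicular nucleotide transporter, was lower at -1.22 ± 1.20 (SD, n = 9, limma adjusted p = 0.0174) and Gja1, connexin 43, at -0.66 ± 0.38 (adjusted p = 0.00178), while the volume-regulated channel subunit Lrrc8a was higher at 0.58 ± 0.26 (adjusted p = 0.00069). Of 26 G protein subunits and effectors 25 were tested, of which 10 rose and 4 fell, with a median of 0.09. The 56.0% called was close to the 52.5% of all tested genes. Plcb1, a phospholipase C acted on by Gq, was higher at 1.19 ± 0.49 (adjusted p = 0.000268). Gna15, a Gq-class subunit, was lower at -2.73 ± 1.92 (adjusted p = 0.00312), and the adenylyl cyclase gene Adcy4 was lower at -1.37 ± 1.13 (adjusted p = 0.00756).

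**Figure D4:**
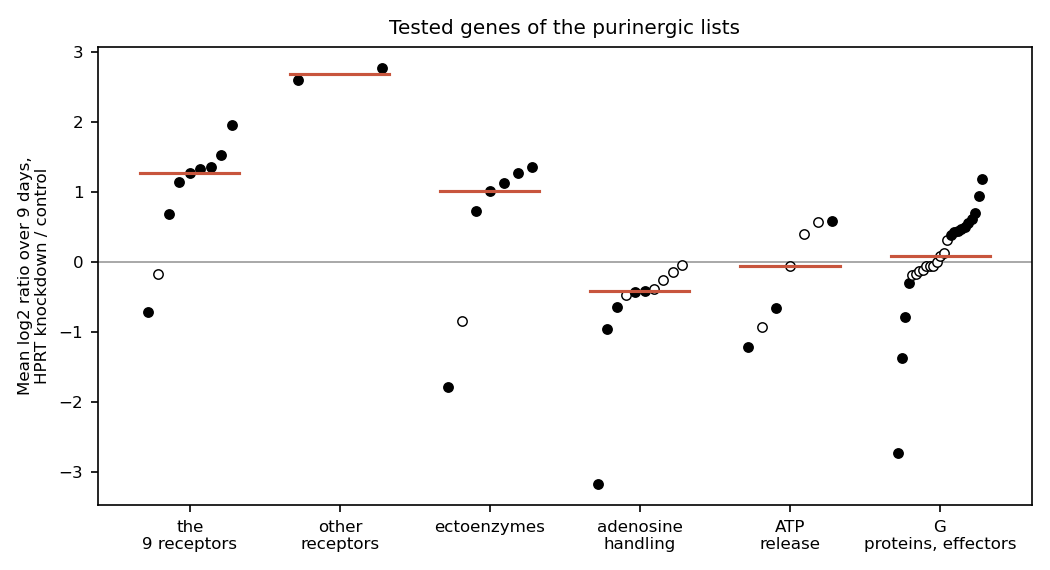
Mean log2 ratio of HPRT-knockdown over control on 9 days (vertical axis) for each tested gene of the receptors and of the 5 lists of pathway genes. Filled points passed the limma test, open points did not, and the bar is the median, from 2.69 for the other receptors and 1.28 for the 9 receptors to -0.42 for adenosine handling.

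Markers of several cell types also differed between the lines, to be read beside the 26.2% of all tested genes that were higher and the 26.3% that were lower. Of 8 astrocyte and radial glia markers 7 were higher and 0 lower (median log2 ratio 1.12), and of 13 oligodendrocyte lineage markers 6 were higher and 0 lower (median 2.19). Of 10 tested neuronal markers 0 were higher and 7 lower (median -1.55), of 8 embryonic stem cell markers 8 were lower (median -2.71), and of 5 tested sensory neuron markers 2 were lower. Of the microglial markers 13 were listed in every table, of which 5 were at 0 throughout (Cx3cr1, C1qa, C1qb, C1qc and Tyrobp) and 6 lay under the filter. Of the other 2 Tmem119 was higher (limma adjusted p = 0.0466). Of 3 tested platelet markers none passed. Of 7 tested endothelial markers 1 was higher and 2 lower, and of 11 fibroblast markers, which the feeder cells would express, 0 were higher and 2 lower. Summed levels of these lists cannot be given because the tables hold differences, and the part of the cell types in the receptor values was not tested.

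The genes whose 10 within-day ratios were most like those of a receptor are given as a description, with Pearson r over the same 10 pairs of libraries. For each receptor they are the 2 highest of 13608 tested genes. Their r values are therefore high in part through that choice, and none was tested. Unlike the means and tests, these r values include day 6, and r without day 6 was not computed. For Adora1 they were Sfxn5 (0.97) and Ppap2b (0.97), for Adora2a Ccdc85b (0.97) and Ric8 (0.95), and for Adora2b Slc24a3 (0.97) and Papln (0.97). P2rx4 was most like Fbxo8 (0.97) and Arpc1b (0.97), P2rx7 like Fos (0.96) and Ier3 (0.96), and P2rx3 like Mms22l (0.91) and Tbrg1 (0.91). P2ry1 was nearest to Pdcd6ip (0.93) and Gria3 (0.91), P2ry2 to 2010002N04Rik (0.95) and LOC100503514 (0.95), and P2ry14 to Uaca (0.92) and Scube1 (0.91). Fos and Ier3, the pair nearest to P2rx7, are immediate early genes, with mean log2 ratios of 2.40 and 0.64. Ccdc85b and Ric8, the pair nearest to Adora2a, had means of 0.05 and -0.15, so a high r can come without a mean difference between the lines. Among the receptors, Adora1 and Adora2a had an r of 0.82, and the lowest value was -0.78 for Adora2b and P2rx7. Day 6 was the only day with ratios below 0 for Adora1 (-1.25) and Adora2a (-0.32), so it weighs on their r.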

How the data were processed

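RNA-Seq libraries (TruSeq kit v2) of 10 control and 10 HPRT-knockdown SNM samples were analyzed. Per the study's methods the authors aligned reads with CASAVA 1.8.2 and ELAND to NCBI37/mm9 and normalized gene counts with DESeq. The deposited values are log2 normalized counts minus the mean of the 2 libraries of a table, each table being normalized separately. Total reads per library are not in these tables.

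The within-day log2 ratio was tested with limma 3.58.1 (R 4.3.3) over 9 days, with Benjamini-Hochberg adjustment over 13608 genes, of 19041 with reads, whose typical level was at least 16 normalized reads as read from the rounding step of the values. Slopes on day used the ratios, or values joined across the tables of a line. The exact permutation test was two-sided, with a smallest possible p of 0.00391. A library with 0 reads is listed at a log2 value of 0. Read numbers were sought in steps of 1/49 read so that all tables were met. Both the search and the fits were tested on simulated data first.

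Gene positions are from the GENCODE annotation of NCBIM37 and promoters from RefSeq (GRCm38.p6), which held 8 of the 10 receptors. All receptors are named, of each pathway list up to 3 passing genes with the largest mean ratio, and of all tested genes the 2 most alike to each receptor. The receptors and the lists were chosen with earlier results of these data known. Alternatives were other level filters, day 6 kept, each day left out, recentering, ratios through neighboring tables, no pairing, and another time scale.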

Additional observations from a re-analysis of the deposited data

Results flagged for a closer look

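A total of 28 sets of values of the receptors were searched for a single value far from the rest, and 4 had one. The rule marks about 1 set in 20 by chance when the values are replicates from 1 normal distribution. The sets here are days of a course, and the sets of reads include day 6, so that rate need not hold. For P2ry2 the log2 ratio of day 10, 3.01, lay above the other 8 days of the comparison by 0.572 of the range of all 9 days, and the control library of day 6, at 103.57 normalized reads, lay above the other 9 control libraries. For P2ry12 the knockdown library of day 1, at 40.26 normalized reads, stood above the other 9 knockdown libraries by 0.812 of the range. For P2ry14 the knockdown library of day 8, at 153.18 normalized reads, did so by 0.536 of the range.

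In addition, 3 receptors had a log2 ratio whose slope on day differed from 0 by limma over 9 days, so that the slopes of the control line and the knockdown line differed. The slope was -0.103 per day for Adora1 (adjusted p = 0.0186), -0.1505 for Adora2b (adjusted p = 0.0325) and 0.115 for P2rx4 (adjusted p = 0.0157).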

How the results depend on the processing

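In the comparison of HPRT-knockdown with control cells the number of genes passing was 7141, and it stayed within 1.5 times of that under each alternative tried. Without the replicate block, that is without the pairing of libraries by day, 5699 genes and 7 of the receptors passed, P2ry14 being lost. The deviations of the 2 libraries of a day from their line means had a correlation over genes of 0.00735 on day 0 and 0.167 to 0.446 on the other 8 days. For both results the knockdown values were the joined control values plus the within-day ratio. An error of the joined control values, such as that of days 3 and 4, thus enters both lines and can raise this correlation. At the stricter level of 256 normalized reads only Adora1 was tested, so the exact test counted 1 receptor in place of 8, and leaving out 1 day gave 7 to 8. For the slope of the ratio 1911 genes passed, 1066 with day 6 kept and 605 to 1657 with 1 day left out, the fewest without day 12. For the control line 5933 genes passed, 3929 with the slope on log2(day + 1), and 3564 when days 3 and 4 were also joined through the knockdown line, a choice made after seeing the data. Adora2a then did not pass (adjusted p = 0.055 and 0.0884), nor Adora2b (0.0542 and 0.068), and Adora2b also failed with no level filter (0.0565). For the knockdown line 1786 genes passed, 127 with the slope on log2(day + 1), where neither P2rx4 (0.123) nor P2ry14 (0.0531) passed, and 171 to 2959 with 1 day left out, the fewest without day 14. Without day 1 the P2rx7 slope passed (0.0398), and without day 0 that of Adora2a (0.0277). The cause of these shifts was not tested. Low read numbers limit P2ry12 in all libraries and P2ry14 up to day 4.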
